A study of Mus musculus with 15 samples.

Results

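The 38 genes described here serve the germ line: regulators of germ cells, proteins of meiotic chromosomes, and the piRNA pathway. They were named as a list with earlier results of these data known. Their shares, set beside those of all genes, are therefore descriptions and not a test of the list. Members were found by gene name, taking every probe that was not a control and whose name in the scanner files equalled a member. All 38 had a probe (48 probes in all), out of 30905 gene names on the array. A gene was kept for testing where a probe was well above background on 3 or more arrays of a group, and 36 of the 38 passed, against 21233 of all 30905 names (68.7 percent). Spo11, which cuts DNA to start meiotic recombination, and Tdrd6, a tudor protein of spermatids, were not well above background on any of the 15 arrays and were not tested.

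The study measured total RNA from mouse cells on single-colour (Cy3) Agilent arrays in 4 groups. There were 4 arrays of embryoid bodies depleted of Cbx7 by a construct the labels call KD33 (EB9 knockdown), 4 arrays of control embryoid bodies (EB9 control), 4 arrays of embryonic stem (ES) cells with the same KD33 depletion (ES knockdown) and 3 arrays of control ES cells (ES control). Embryoid bodies are aggregates in which ES cells differentiate into many cell types. Cbx7 is a chromobox subunit of Polycomb repressive complex 1, and the title of the series names the Polycomb Cbx proteins as its subject. The labels call the replicates biological, give no strain or age, name only the KD33 depletion, and do not spell out the 9 of EB9.

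In mice, primordial germ cells are set aside in the early embryo, switch on genes such as Dazl and Ddx4 when they reach the gonad, and enter meiosis under the control of Stra8, which responds to retinoic acid. In meiosis, cohesin rings and an axis of proteins hold the chromosomes, the synaptonemal complex joins homologous chromosomes, and strand exchange repairs the breaks that recombination makes. The piRNA pathway loads small RNAs into PIWI proteins to silence transposons in germ cells. Most of these genes are silent in somatic cells, where DNA methylation and repressor complexes that bind E-boxes and E2F sites hold many of them down, while mouse ES cells transcribe a number of them.

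Levels are given as log2 signal relative to the 75th percentile of the same array, so a level of 0 is the signal that 75 percent of the probes lie under. They may be compared between arrays for 1 probe, but not between probes. Between 62.5 and 75.4 percent of features were well above background on an array, and the highest share belonged to EB9 control replicate 2, with 62.5 to 69.0 percent on the other 14. That array also had the highest EB9 control level for Stra8, Ddx4, Dazl, Mael and Slc25a31. Calls that changed when it was left out are given beside the results. Leaving out the highest control array makes the rise of such a gene in EB9 larger. Those fits are thus no independent check of the rises. Each slide carried 1 array of each group, apart from slide 4, which had no ES control. Each group kept 1 position on every slide, and its effect cannot be told apart from that of the group. The depletion itself was not visible at the Cbx7 probes. The brighter one lay at -5.14 to -4.69 in EB9 knockdown, -5.35 to -4.46 in EB9 control, -4.86 to -4.36 in ES knockdown and -4.97 to -4.21 in ES control, and the knockdown difference was -0.16 ± 0.22 in EB9 and -0.13 ± 0.23 in ES (log2, SE, limma adjusted p = 0.71 and 0.736).

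**Figure D1:**
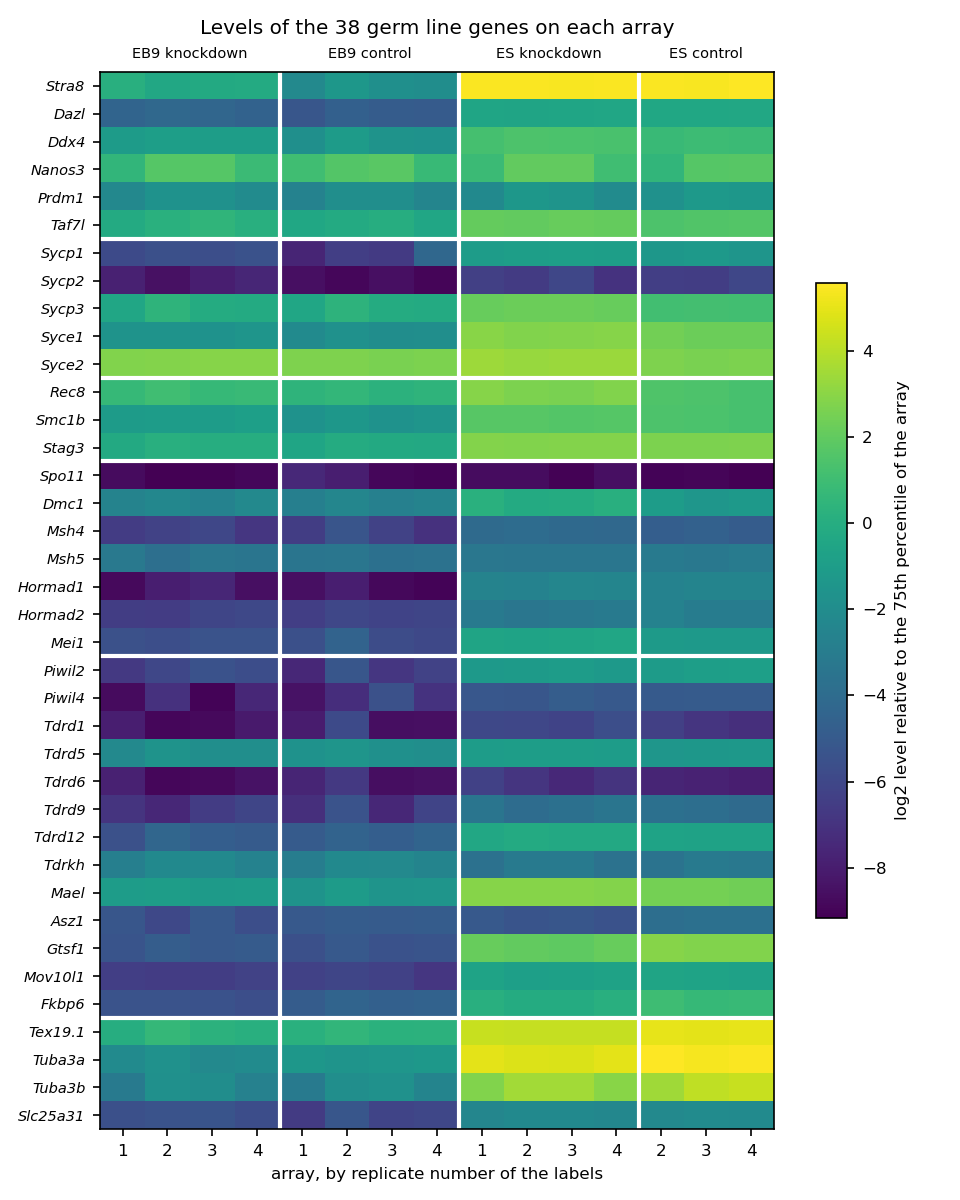
Log2 level of each of the 38 genes (rows, by role: germ cell regulators, synaptonemal complex, cohesin, recombination and axis, piRNA pathway, other germ line genes) on each of the 15 arrays (columns), with the array's own 75th percentile at 0; colours are read along a row, not between rows. Most rows are darker on the 8 EB9 arrays than on the 7 ES arrays, and Tdrkh is the row that is brighter there.

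The stretches of DNA just before the start of the genes are shown for 5 members whose values the results turn on. Stra8 changed most with the knockdown in EB9, Rec8 and Sycp3 rose with it in ES cells, Ddx4 rose at both stages and Fkbp6 fell at both. Fkbp6 has 2 annotated starts, and the upstream one is shown. They are RefSeq promoter sequences of build GRCm38.p6, from 250 bases before the annotated start to the base before it, written 5' to 3' along the strand of the gene. Capitals mark 3 motifs, each searched on both strands. The first is the E-box CACGTG, which reads the same on both. The next is the core of an E2F site, GCGGGA. The last is AGGTCA, called here the retinoic acid receptor motif. It is a single unit of the repeated site that these receptors bind, so a lone match is not a full site.
Stra8, chr6:34920698-34920947, plus strand: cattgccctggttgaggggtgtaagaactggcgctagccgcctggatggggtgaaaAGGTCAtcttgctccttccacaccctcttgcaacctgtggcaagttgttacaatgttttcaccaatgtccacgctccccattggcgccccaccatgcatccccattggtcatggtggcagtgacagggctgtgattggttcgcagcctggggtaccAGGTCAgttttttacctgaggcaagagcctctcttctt
Rec8, chr14:55617916-55618165, plus strand: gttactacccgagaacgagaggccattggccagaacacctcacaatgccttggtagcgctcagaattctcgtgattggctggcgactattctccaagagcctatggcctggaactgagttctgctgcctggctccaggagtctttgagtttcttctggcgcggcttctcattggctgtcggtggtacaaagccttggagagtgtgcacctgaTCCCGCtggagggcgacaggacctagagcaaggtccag
Sycp3, chr10:88459337-88459586, plus strand: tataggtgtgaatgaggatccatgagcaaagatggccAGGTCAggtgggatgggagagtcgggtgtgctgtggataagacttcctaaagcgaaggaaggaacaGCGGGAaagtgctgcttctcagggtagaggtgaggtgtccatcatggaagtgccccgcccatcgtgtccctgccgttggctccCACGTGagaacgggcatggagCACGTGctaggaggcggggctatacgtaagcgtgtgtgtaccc
Ddx4, chr13:112652311-112652560, minus strand: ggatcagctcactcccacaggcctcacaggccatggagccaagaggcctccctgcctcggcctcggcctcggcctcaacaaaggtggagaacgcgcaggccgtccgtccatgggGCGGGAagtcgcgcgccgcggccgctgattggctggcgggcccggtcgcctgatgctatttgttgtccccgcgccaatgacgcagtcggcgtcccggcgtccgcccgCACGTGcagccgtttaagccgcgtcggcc
Fkbp6, chr5:135350045-135350294, minus strand: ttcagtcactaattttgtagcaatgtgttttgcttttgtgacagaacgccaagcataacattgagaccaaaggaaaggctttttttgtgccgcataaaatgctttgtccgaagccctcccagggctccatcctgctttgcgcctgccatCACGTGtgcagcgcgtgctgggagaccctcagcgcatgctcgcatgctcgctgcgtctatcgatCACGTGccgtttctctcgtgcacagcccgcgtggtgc
Stra8 held 2 separate matches of the retinoic acid receptor motif and neither an E-box nor an E2F core. The first bases of these matches lay 194 and 38 bases before the start. Sycp3 held 2 E-boxes, an E2F core and a retinoic acid receptor motif, Ddx4 an E-box and an E2F core, Rec8 an E2F core, and Fkbp6 2 E-boxes. A match is a run of letters and was not tested for binding.

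Among the 35 members with a promoter sequence, 13 had an E-box (37.1 percent, against 6.86 percent of all 27025 genes in the table). An E2F core stood before 13 members as well (37.1 percent, against 18.8 percent of all genes), and 5 had both motifs (14.3 percent, against 1.69 percent). The retinoic acid receptor motif was found before 6 members, which is 17.1 percent against 15.8 percent of all genes. No 2 different motifs overlapped in the members' windows. The members' 42 windows were richer in G and C, with a median of 58.4 percent and 14 CpG pairs, against 52.4 percent and 6 over all 32851 windows, and both the E-box and the E2F core hold a CpG pair, and the part of base composition in these shares was not tested. Spo11, Piwil2 and Tdrd6 had no entry.

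**Figure D2:**
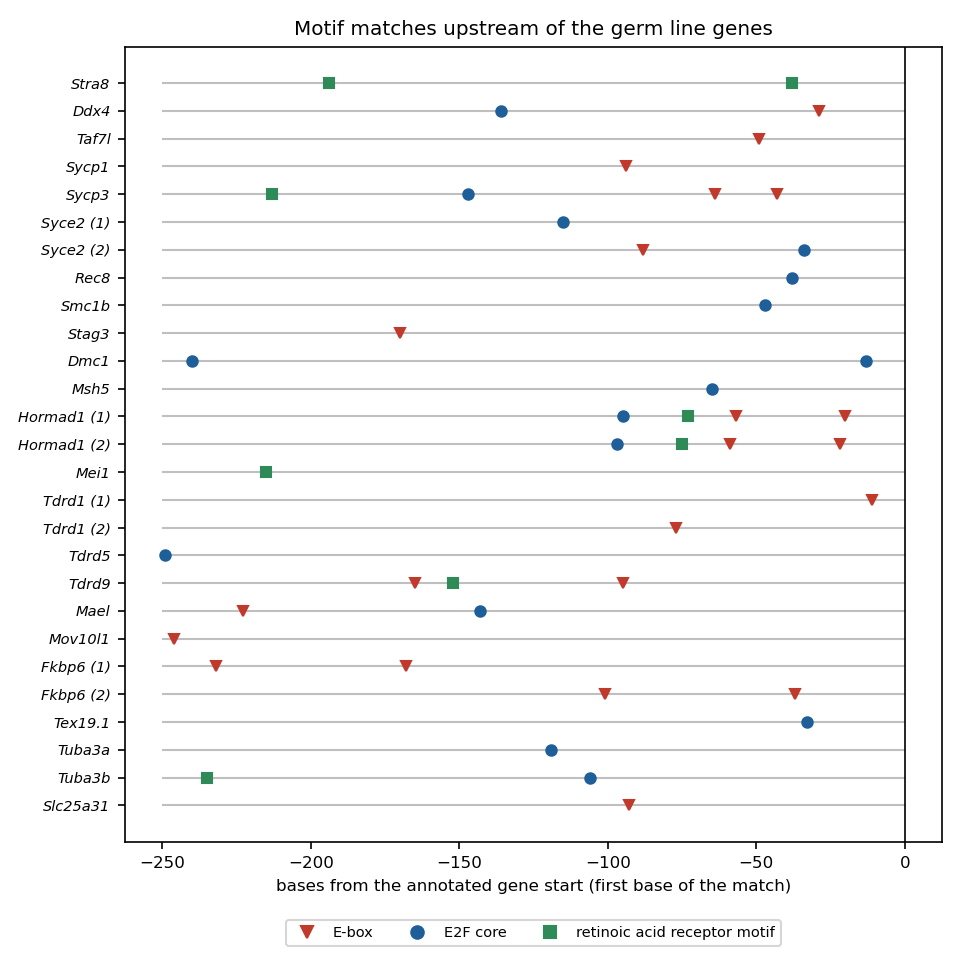
Position of each motif match (first base of the match, in bases from the annotated gene start at 0) in the 27 promoter windows, of 23 genes, that held at least 1; a gene with 2 annotated starts has a row for each. Triangles are E-boxes, circles E2F cores and squares retinoic acid receptor motifs; E-boxes and E2F cores are spread over the window, and Stra8 shows squares only.

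The germ line genes were far lower in EB9 than in ES cells, whether or not Cbx7 was depleted. Of 36 tested members, 31 fell and 1 rose in EB9 knockdown against ES knockdown (88.9 percent changed, against 77.9 percent of all genes tested, of which 44.1 percent fell and 33.7 percent rose). At least 2-fold falls were fitted in 29 of the 31, where 23.2 percent of all genes fell as much, and 4 of the 29 (Sycp2, Hormad1, Piwil4 and Tdrd1) were not well above background on any EB9 knockdown array. In EB9 control against ES control, 32 fell and 1 rose (91.7 percent, against 74.7 percent of all genes, with 41.5 percent lower and 33.2 percent higher), and 28 fell at least 2-fold, where 21.8 percent of all genes did. Among the 28, Sycp2 and Hormad1 were not well above background on any EB9 control array. The median log2 difference of the members was -3.05 in knockdown cells and -2.92 in control cells, against -0.18 and -0.14 over all genes. In total 29 members were lower in EB9 under both conditions, and 32 and 33 of the 36 had arrays that did not overlap between stages (74.2 and 72.9 percent of all genes). The 36 include Sycp2, Hormad1, Piwil4, Tdrd1 and Tdrd9, which passed the filter for testing only through an ES group. Their lower level in EB9 was thus partly set by the filter, and they enter the counts and medians here. EB9 bodies are a mixture of cell types, and in such bulk RNA fewer cells that express a gene cannot be told apart from less RNA per cell. The summed level of 13 markers of naive ES cells moved the same way, to 4.99 to 5.29 in EB9 knockdown and 4.83 to 5.19 in EB9 control, against 8.62 to 8.86 in ES knockdown and 8.73 to 8.77 in ES control. All 13 fell at both comparisons of stage, and their part in the result was not tested.

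Among the regulators, Stra8, the gatekeeper of meiosis (probe on mm9 chromosome 6, 34889237 to 34889296), had levels of 0.10, -0.36, -0.21 and -0.17 in EB9 knockdown, -2.21, -1.38, -1.84 and -1.93 in EB9 control, 5.46, 5.47, 5.40 and 5.49 in ES knockdown and 5.45, 5.44 and 5.56 in ES control. The 7 ES arrays formed a tight band, and the EB9 knockdown arrays lay between it and the EB9 control arrays. Stra8 was 49-fold lower in EB9 knockdown than in ES knockdown (log2 -5.61 ± 0.14 SE) and 160-fold lower in EB9 control than in ES control (log2 -7.32 ± 0.15), with limma adjusted p of 4.82e-13 and 1.01e-13. Dazl, an RNA-binding protein that licenses germ cells, fell in both comparisons (log2 -3.85 ± 0.11 and -4.55 ± 0.12, limma adjusted p = 1.21e-12 and 5.91e-13). The RNA helicase Ddx4 (log2 -2.30 and -2.40) and Taf7l, a subunit of the general transcription machinery in germ cells (log2 -1.93 and -1.80), fell less. Prdm1, which represses the somatic programme in primordial germ cells, did not pass in knockdown cells (log2 -0.12 ± 0.23) and fell in control cells (-0.77 ± 0.25, limma adjusted p = 0.0122).

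Nanos3, which keeps primordial germ cells alive, was the only tested member that passed in none of the comparisons in the fit without the slide. It lay at 0.53 to 1.69 in EB9 knockdown, 0.76 to 1.82 in EB9 control, 0.88 to 2.04 in ES knockdown and 0.52 to 1.75 in ES control. Its arrays were divided by slide and not by group, with those on slides 2 and 3 above those on slides 1 and 4 in each group. With the slide as a block, Nanos3 fell in EB9 knockdown against ES knockdown (log2 -0.30, SE 0.09, limma adjusted p = 0.0108). Ddx4, Prdm1, Sycp3, Tdrkh and Tuba3b showed the same division, which makes 6 of 36 members (16.7 percent) where 26 percent of all genes split in this way or the opposite one. This grouping of slides was chosen after the values were seen.

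All 5 tested genes of the synaptonemal complex fell in EB9 knockdown against ES knockdown, and 4 of 5 did so in the controls. Sycp1, the transverse filament, had log2 differences of -4.71 ± 0.50 and -4.86 ± 0.54 (SE) in knockdown and control cells, and Syce1, of the central element, of -4.45 ± 0.08 and -4.22 ± 0.09. Sycp2, of the lateral element, passed as lower but was not well above background on any EB9 array and on 2 of 4 ES knockdown arrays, so no fold is given. Its signal averaged -7.95 in EB9 knockdown and -6.50 in ES knockdown, and -8.75 in EB9 control and -6.31 in ES control. Sycp3 fell by less (log2 -2.27 ± 0.17 and -1.21 ± 0.19). Syce2, of the central element, stood apart with 2.77, 2.80, 2.89 and 2.88 in EB9 knockdown, 2.74, 2.72, 2.61 and 2.63 in EB9 control, 3.39, 3.28, 3.32 and 3.32 in ES knockdown and 2.72, 2.61 and 2.67 in ES control. Its EB9 control and ES control levels overlapped (log2 0.01 ± 0.05, limma adjusted p = 0.886), while the knockdown levels did not (log2 -0.49 ± 0.05, adjusted p = 6.14e-07).

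The meiotic cohesins Rec8, Smc1b and Stag3 fell in both comparisons of stage. For Stag3 the log2 difference was -2.83 ± 0.08 in knockdown and -2.93 ± 0.09 in control cells, and for Smc1b it was -2.71 ± 0.07 and -2.90 ± 0.08 (SE). Rec8 fell more in the knockdown cells (-1.90 ± 0.10) than in the control cells (-0.98 ± 0.10). Among recombination and axis genes, the recombinase Dmc1 fell (-2.44 ± 0.12 and -1.38 ± 0.13), as did Mei1, needed for meiotic breaks (-4.94 ± 0.24 and -4.24 ± 0.26). Hormad1, a protein of the unsynapsed axis, passed as lower in both comparisons. It was not well above background on any EB9 array (-8.81 to -7.59 in EB9 knockdown and -9.01 to -7.92 in EB9 control) and was measured on all 7 ES arrays (-2.61 to -2.42 in ES knockdown and -2.63 to -2.52 in ES control), so the size of its fall is not known. A second Hormad1 probe was well above background on 1 of 8 EB9 arrays and gives no size either. Msh4, a mismatch-repair relative that stabilises crossovers (-2.31 ± 0.29 and -1.55 ± 0.31), and Hormad2, of the axis (-3.07 ± 0.14 and -3.33 ± 0.16), fell too. The mismatch-repair relative Msh5 did not pass in knockdown cells (log2 -0.08 ± 0.11) and fell in control cells (-0.39 ± 0.12). Its other probe passed as lower in knockdown cells (-1.26, limma adjusted p = 0.000442) and in control cells (-2.10, limma adjusted p = 9.33e-06).

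In the piRNA pathway, 10 of 12 tested genes fell and 1 rose in each comparison of stage. Gtsf1, a zinc finger partner of PIWI proteins, had levels of -5.33, -4.80, -5.07 and -4.92 in EB9 knockdown, -5.57, -5.05, -5.47 and -5.36 in EB9 control, 2.13, 2.05, 1.93 and 2.13 in ES knockdown and 2.86, 2.75 and 2.79 in ES control. Its fall was 136-fold in knockdown and 286-fold in control cells (log2 -7.09 ± 0.12 and -8.16 ± 0.13, limma adjusted p = 1.47e-14 and 1.18e-14), more than that of any other member measured at both stages. The helicase Mov10l1 (-5.70 ± 0.13 and -5.75 ± 0.14) and the co-chaperone Fkbp6 (-5.45 ± 0.10 and -5.41 ± 0.11) followed. Piwil2, a PIWI protein, fell too (-4.81 ± 0.39 and -5.51 ± 0.42), like Mael, a protein of the nuage (-3.93 ± 0.09 and -3.86 ± 0.10). Tdrkh, the tudor protein that holds PIWI proteins at mitochondria and is also made in somatic cells, went the other way, with -2.81, -2.16, -2.20 and -2.66 in EB9 knockdown, -2.95, -2.16, -2.24 and -2.52 in EB9 control, -3.66, -3.09, -3.17 and -3.60 in ES knockdown and -3.57, -3.09 and -3.25 in ES control. It rose 1.90-fold in knockdown and 1.78-fold in control cells (limma adjusted p = 0.00114 and 0.00428), and no EB9 array overlapped an ES array of the same condition.

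Among the tudor proteins, Tdrd12 fell in both comparisons (log2 -4.60 ± 0.20 in knockdown cells). Tdrd9 (-3.13 ± 0.41 and -2.68 ± 0.45) and Tdrd5 (-0.92 ± 0.11 and -0.34 ± 0.12) fell in both as well. Piwil4, Tdrd1 and Tdrd9 were near background in EB9, with at most 2 of 4 arrays of a group well above it. Piwil4 and Tdrd1 passed as lower in EB9 knockdown than in ES knockdown, but no EB9 knockdown array was well above background for either, so no fold is given. Piwil4 averaged -8.09 in EB9 knockdown and -5.06 in ES knockdown, and Tdrd1 averaged -8.42 and -5.95 in the same groups. Tdrd1 did not pass between the controls (log2 -0.95, SE 0.54, limma adjusted p = 0.131). No ES control array measured Tdrd1. EB9 control replicate 2 was the only array of its group to measure it, at -5.85 against -8.63 to -8.04 on the other 3. Without that replicate Tdrd1 passed as lower (limma adjusted p = 0.000324). No array of either control group was then well above background, so this compares background signals and no size is given. Asz1, a scaffold at mitochondria, did not pass in knockdown cells (log2 -0.20 ± 0.16) and fell in control cells (-1.21 ± 0.18, limma adjusted p = 3.07e-05). Of the remaining genes, Tex19.1, which protects germ cells and placenta from transposons, fell in knockdown and control cells (log2 -4.01 ± 0.12 and -4.70 ± 0.13), as did the ADP/ATP carrier Slc25a31 (-3.22 ± 0.22 and -3.86 ± 0.24) and the testis tubulin Tuba3a (-6.89 ± 0.10 and -6.90 ± 0.11). Tuba3a and Tuba3b are near-identical copies. The probe of Tuba3b aligned with the Tuba3a probe used here over 56 bases with 14 mismatches. With the second Tuba3a probe it aligned over 47 bases with 7 mismatches. Signal of the copies may thus be mixed, and the fall of Tuba3b (-5.57 ± 0.36 and -6.30 ± 0.39) is uncertain in the same way.

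**Figure D3:**
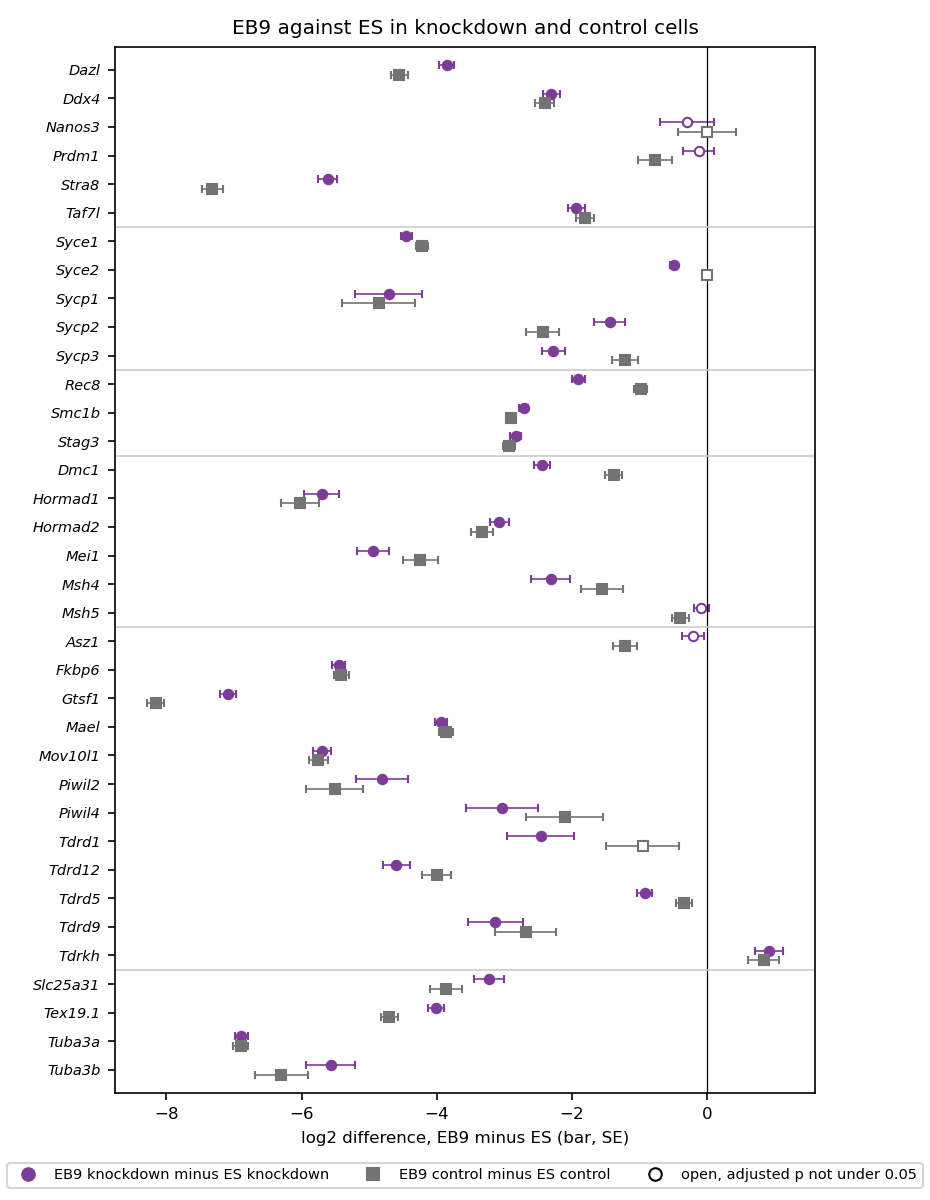
Log2 difference between EB9 and ES (x axis; bar, SE) for each of the 36 tested genes (rows, in role groups), with circles for knockdown cells and squares for control cells; open symbols did not pass at an adjusted p of 0.05. Most symbols lie left of 0, Tdrkh lies right of it, and Stra8, Rec8, Dmc1, Sycp3, Syce2 and Asz1 are among the genes whose circle and square stand apart.

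In ES cells, the share of germ line genes that changed with depletion of Cbx7 was close to that of all genes, and the changes past 2-fold were rises of Rec8, Dmc1 and Sycp3 and a fall of Asz1. Of 36 tested members, 10 rose and 5 fell in ES knockdown against ES control (41.7 percent, close to the 38.4 percent of all genes tested that changed). Members rose in 27.8 percent of cases and fell in 13.9 percent, where 21.9 and 16.5 percent of all genes did. With the slide as a block, 12 rose and 8 fell (against 47.4 percent of all genes called), and 15 of these 20 were the members named here. Nanos3 and Msh4 joined the rises, and Prdm1, Hormad2 and Tuba3b the falls. The median difference was 0.10 over the members and 0.04 over all genes. At least 2-fold changes were found in 3 members that rose (8.33 percent, against 1.76 percent of all genes) and 1 that fell (2.78 percent, against 3.15 percent). In 24 of 36 members the arrays of the groups did not overlap, a higher share than the 49.6 percent of all genes. Marker lists moved too. The summed level of 12 visceral endoderm markers was 5.47 to 5.80 in ES knockdown and 4.85 to 4.99 in ES control (2 higher, 4 lower), and that of neuroectoderm markers was 1.68 to 1.73 in ES knockdown and 2.25 to 2.36 in ES control (3 of 6 tested higher, 2 lower). Their part in the changes was not tested.

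The largest rise was that of Rec8, the meiotic subunit that replaces the mitotic kleisin in cohesin (mm9 chromosome 14, 56244160 to 56244219), whose promoter above holds an E2F core. Rec8 lay at 2.86, 2.66, 2.57 and 2.75 in ES knockdown, against 1.51, 1.43 and 1.30 in ES control. No array of one group reached the other, and the difference was 2.45-fold (log2 1.29 ± 0.10 SE, limma adjusted p = 1.38e-06). Within slides 1, 2 and 3 it was 1.35, 1.22 and 1.27. Dmc1, which carries out strand exchange (mm9 chromosome 15, 79415293 to 79415352), had 0.16, -0.18, -0.13 and 0.12 in ES knockdown, against -1.03, -1.43 and -1.28 in ES control, a 2.36-fold rise (log2 1.24 ± 0.13, limma adjusted p = 1.33e-05). Its groups were clear of each other, and its other probes gave rises of 1.26 and 1.10. Sycp3, of the lateral element (mm9 chromosome 10, 87935675 to 87935734), had 2.15, 2.27, 2.25 and 2.14 in ES knockdown, against 1.09, 1.18 and 1.13 in ES control, a rise of 2.10-fold (log2 1.07 ± 0.19, limma adjusted p = 0.000566). Here too the lowest knockdown array stood well above the highest control array, and within slides the difference was 1.06 to 1.12.

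Smaller rises joined these. In the synaptonemal complex Syce2 (log2 0.66 ± 0.05) and Syce1 (0.57 ± 0.09) rose, which with Sycp3 makes 3 of 5 tested genes, and Sycp1 (0.47 ± 0.54) and Sycp2 (-0.19 ± 0.24) did not pass. In cohesin, Smc1b (0.33 ± 0.08) rose with Rec8, and Stag3 (0.15 ± 0.09) did not pass. Among the regulators Taf7l (0.54 ± 0.13) and Ddx4 (0.48 ± 0.14) rose. Ddx4 had 1.23, 1.43, 1.38 and 1.31 in ES knockdown, against 0.79, 0.92 and 0.86 in ES control, with no overlap. Stra8 did not pass, with a difference of -0.03 ± 0.15 (95 percent interval -0.36 to 0.30), and Dazl did not pass (-0.15 ± 0.12). In the piRNA pathway Mael (0.44 ± 0.10) and Tdrd5 (0.38 ± 0.12) rose. Of the other Tdrd5 probes, 1 missed the threshold (log2 0.28, limma adjusted p = 0.211) and 1 passed (log2 0.86, limma adjusted p = 0.0221). The limma adjusted p of these smaller rises was between 1.44e-06 and 0.0252.

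Asz1 fell most, to -5.04, -5.33, -5.21 and -5.48 in ES knockdown, against -3.85, -3.70 and -3.71 in ES control. The groups were far apart at 2.86-fold (log2 -1.52 ± 0.18, limma adjusted p = 2.67e-05). The coordinates of its probe span an intron (mm9 chromosome 6, 18005508 to 18021991). Fkbp6, whose promoter above holds 2 E-boxes, lay at 0.10, -0.08, -0.12 and 0.11 in ES knockdown, against 1.00, 0.69 and 0.73 in ES control (log2 -0.80 ± 0.11, limma adjusted p = 0.000101). Gtsf1 (-0.74 ± 0.13), Tex19.1 (-0.73 ± 0.13) and Tuba3a (-0.62 ± 0.11) fell as well, each with no overlap between its groups (limma adjusted p = 0.000615 to 0.000695). Thus 3 of 12 tested piRNA pathway genes fell and 2 rose. Mei1 and Msh4 did not pass here (log2 0.66 ± 0.26 and 0.63 ± 0.31), yet passed when EB9 control replicate 2, which shapes the shared estimate of spread, was left out of the fit (limma adjusted p = 0.000135 and 0.0243), as did Tdrd1. The 21 members that did not pass ranged from -0.81 ± 0.39 for Tuba3b to 0.86 ± 0.54 for Tdrd1, which 3 of 4 ES knockdown arrays and no ES control array measured (limma adjusted p = 0.244). A fit on the ES arrays alone called 24 members, 16 higher and 8 lower, and 44.1 percent of all genes. An E-box or E2F core stood before 9 of the 10 members that rose, 3 of the 5 that fell and 9 of the 20 with a promoter sequence that did not pass. The share was 60 percent over the members with a promoter sequence and 23.7 percent over all genes. These counts carry no test.

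**Figure D4:**
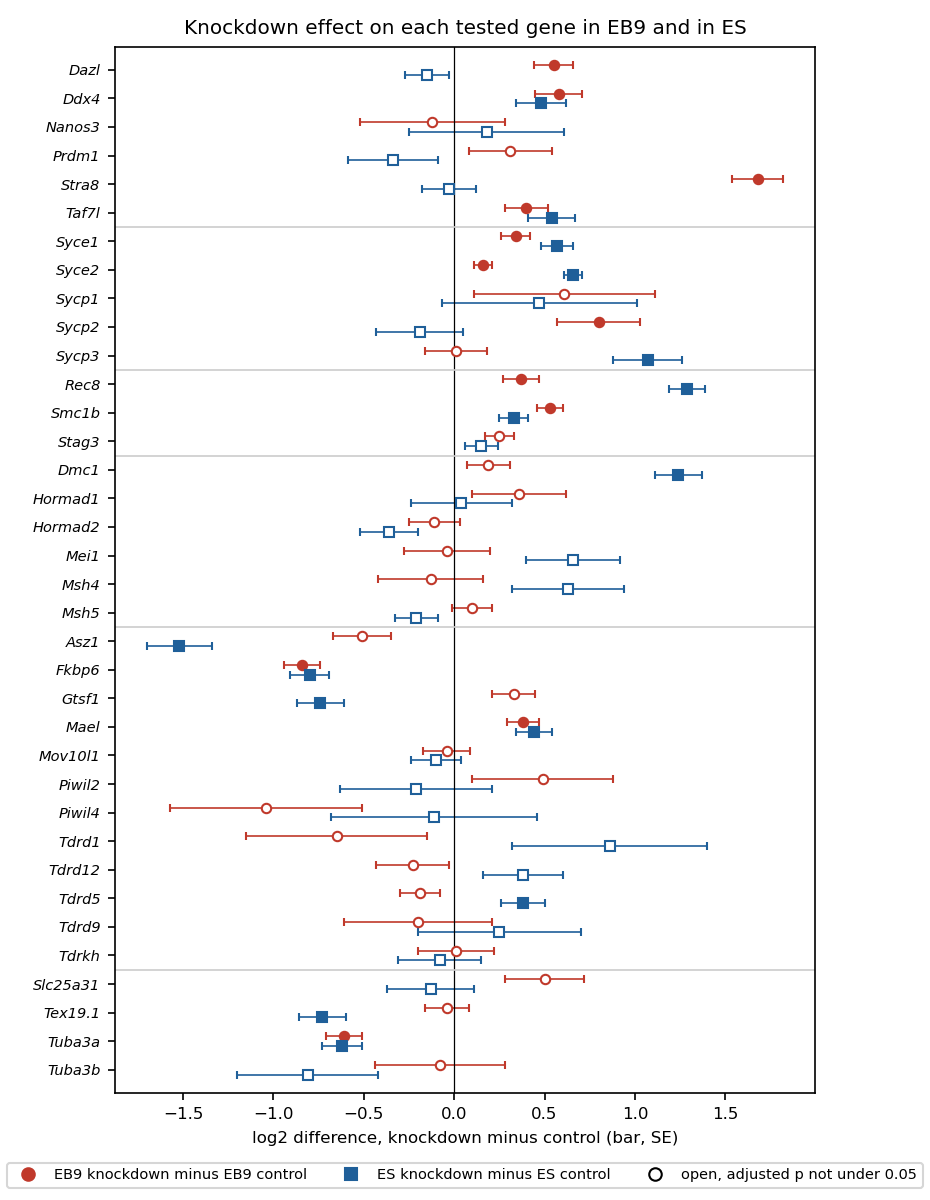
Log2 difference between knockdown and control (x axis; bar, SE) for each of the 36 tested genes (rows, in role groups), with circles for EB9 and squares for ES; open symbols did not pass at an adjusted p of 0.05. The circle of Stra8 stands alone at 1.68, the squares of Rec8, Dmc1 and Sycp3 lie at 1.07 to 1.29 with their circles near 0 to 0.4, and Fkbp6 and Tuba3a have both symbols left of 0.

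In EB9, the change that stood out was in Stra8, which was higher in the depleted bodies. Of 36 tested members, 10 rose and 2 fell in EB9 knockdown against EB9 control (33.3 percent, against 15.1 percent of all genes tested). Members rose in 27.8 percent of cases, where 7.95 percent of all genes did, and fell in 5.56 percent, against 7.19 percent. The slide block gave 12 rises and 3 falls (against 26.7 percent of all genes called), adding Prdm1 and Stag3 among the rises and Asz1 among the falls. The median difference was 0.13 over the members and -0.01 over all genes. Without EB9 control replicate 2 there were 11 rises and 2 falls (14.1 percent of all genes called). Other arrays left out gave fewer, with 5 rises and 2 falls without EB9 knockdown replicate 4 (8.5 percent of all genes). There were 6 rises and 2 falls without EB9 control replicate 4 (9.59 percent of all genes). A fit on the EB9 arrays alone called only 4, Stra8 and Smc1b higher and Fkbp6 and Tuba3a lower, and 5.28 percent of all genes. In 9 of 36 members the arrays of the groups did not overlap, against 15.6 percent of all genes. Markers of naive ES cells had a summed level of 4.99 to 5.29 in EB9 knockdown and 4.83 to 5.19 in EB9 control, with 4 of 13 higher and 1 lower. The summed level of visceral endoderm markers was 5.72 to 5.97 in EB9 knockdown and 5.91 to 6.30 in EB9 control, with none of 12 higher and 5 lower. That of mesoderm markers was 2.92 to 3.16 in EB9 knockdown and 3.00 to 3.11 in EB9 control, with none of 10 tested higher and 3 lower. Among 9 primordial germ cell markers (3.06 to 3.26 in EB9 knockdown and 2.75 to 3.07 in EB9 control) 4 were higher and none lower, but 4 of the 9 are members, among them Dazl and Ddx4, which are 2 of the 4. The part of these lists in the rises was not tested.

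The 4 EB9 knockdown arrays of Stra8, at -0.36 to 0.10, all lay above the 4 EB9 control arrays, at -2.21 to -1.38. The difference was 3.20-fold (log2 1.68 ± 0.14 SE, limma adjusted p = 4.86e-05), and within slides 1 to 4 it was 2.31, 1.02, 1.62 and 1.76. Stra8 was the only member of the 10 that rose at least 2-fold (2.78 percent of the members, against 0.706 percent of all genes). Without EB9 control replicate 2 its difference was 1.83 ± 0.11 (limma adjusted p = 5.39e-06). The level in EB9 knockdown was still far under that of ES cells, as given above.

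Ddx4 lay at -1.07, -0.89, -0.94 and -0.96 in EB9 knockdown, against -1.83, -1.07, -1.62 and -1.68 in EB9 control, where replicate 2 met the lowest knockdown array. The rise was 0.58 ± 0.13 (log2, SE, limma adjusted p = 0.00926) and 0.74 ± 0.07 without that replicate (adjusted p = 9.95e-05). Dazl had -4.42, -4.20, -4.29 and -4.53 in EB9 knockdown, against -5.24, -4.64, -4.86 and -4.91 in EB9 control, with no overlap and a rise of 0.55 ± 0.11 (limma adjusted p = 0.00527). Smc1b, the meiotic form of a cohesin core subunit, had -1.11, -1.03, -1.04 and -0.88 in EB9 knockdown, against -1.65, -1.36, -1.66 and -1.50 in EB9 control, also with no overlap (0.53 ± 0.07, limma adjusted p = 0.000661). Mael, of the nuage, rose by 0.38 ± 0.09 with all arrays, and by 0.50 ± 0.05 without EB9 control replicate 2, which at -1.07 lay among the knockdown arrays (-1.13 to -0.95). Taf7l (0.40 ± 0.12), Rec8 (0.37 ± 0.10), Syce1 (0.34 ± 0.08) and Syce2 (0.16 ± 0.05) rose by less, with a limma adjusted p between 0.0173 and 0.0479. Mael and each of these 4 missed the threshold when at least 1 array of EB9 was left out. Sycp2 also passed (0.80 ± 0.23, limma adjusted p = 0.0316), but no EB9 array was well above background at its probe, so no fold is given, and it missed the threshold without EB9 control replicate 2 (adjusted p = 0.0684).

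Fkbp6 and Tuba3a fell in EB9 too. Fkbp6 had -5.37, -5.37, -5.45 and -5.60 in EB9 knockdown, against -4.85, -4.40, -4.65 and -4.53 in EB9 control, a difference of 1.79-fold with no overlap (log2 -0.84 ± 0.10, limma adjusted p = 0.000343). Tuba3a had -2.13, -1.70, -2.22 and -2.05 in EB9 knockdown, against -1.39, -1.52, -1.45 and -1.29 in EB9 control (log2 -0.61 ± 0.10, limma adjusted p = 0.00219). The second probe of each gene fell as well (log2 -0.86 and -0.57). Sycp3 did not differ beyond its spread (0.01 ± 0.17). Its arrays ran from -0.43 to 0.41 in EB9 knockdown and from -0.43 to 0.38 in EB9 control, but within each slide the difference was between -0.02 and 0.03. Dmc1 (0.19 ± 0.12), Tex19.1 (-0.04 ± 0.12) and Gtsf1 (0.33 ± 0.12) did not pass, although a further Dmc1 probe did (0.48, limma adjusted p = 0.015). Without EB9 control replicate 2, Gtsf1 (0.43) and Stag3 (0.32) rose (limma adjusted p = 0.0223 and 0.0225). Slc25a31 did not pass with all arrays (0.50 ± 0.22), and rose by 0.77 ± 0.13 without EB9 control replicate 2, its highest control array at -5.20 against -6.63 to -6.03 on the other 3 (limma adjusted p = 0.00343). The 24 members that did not pass ranged from -1.04 ± 0.53 for Piwil4, which no EB9 knockdown array and 1 of 4 EB9 control arrays measured (limma adjusted p = 0.222), to 0.61 ± 0.50 for Sycp1, whose EB9 control arrays ran from -7.66 to -4.23. An E-box or E2F core stood before 6 of the 10 members that rose, both that fell and 13 of 23 that did not pass. The share was 60 percent over the members with a promoter sequence and 23.7 percent over all genes, and these counts carry no test either.

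**Figure D5:**
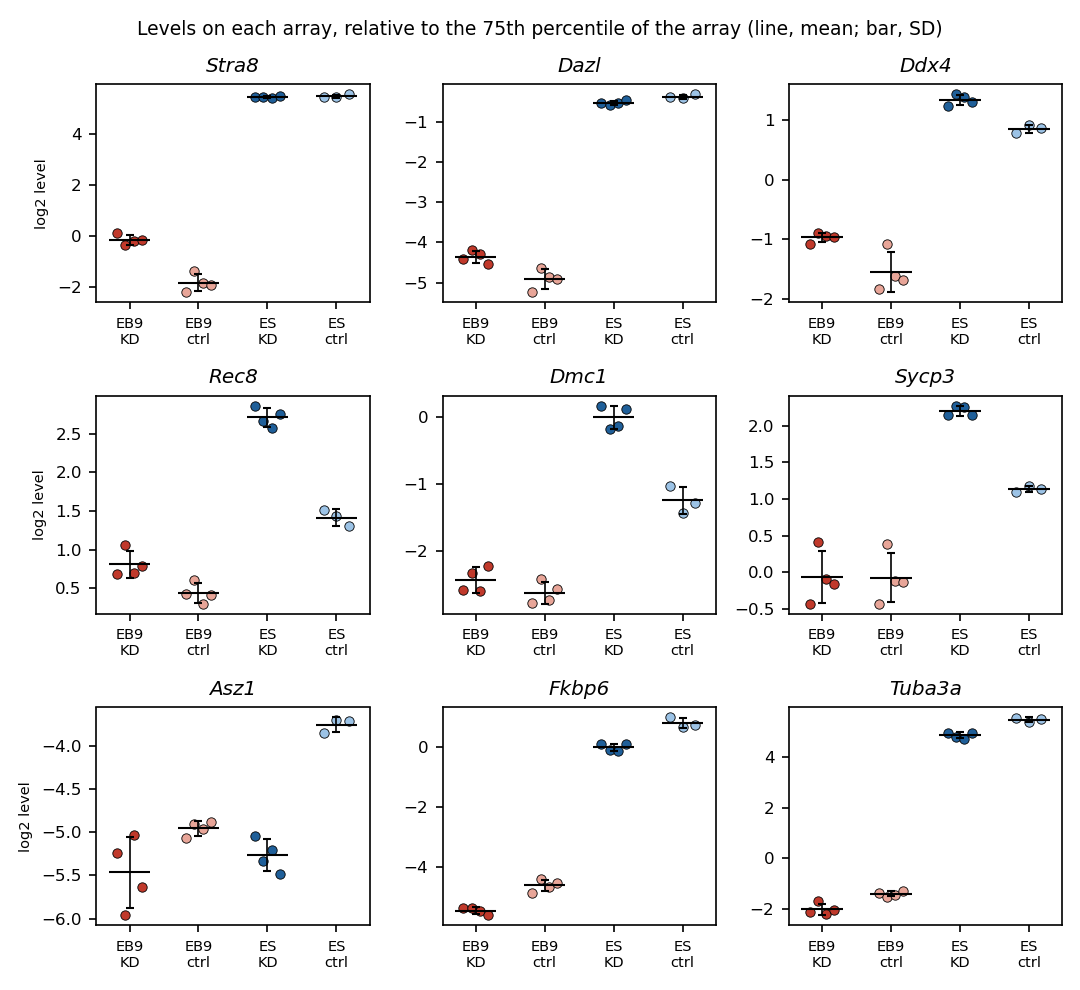
Log2 level on each array (points), with the array's own 75th percentile at 0, of 9 genes in EB9 knockdown, EB9 control, ES knockdown and ES control (left to right), with the mean (line) and SD (bar); each panel has its own y axis. The groups of Stra8 separate in EB9 (-0.16 against -1.84 on average) and not in ES (5.45 against 5.48), and those of Rec8, Dmc1 and Sycp3 separate most in ES.

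Across the stages, 9 members passed in both knockdown comparisons and all 9 moved the same way at both, where 4.57 percent of all genes passed in the same direction and 3.46 percent in opposite ones. These were Ddx4, Taf7l, Syce1, Syce2, Rec8, Smc1b and Mael, which rose, and Fkbp6 and Tuba3a, which fell. With the slide as a block, Prdm1 passed at both stages in opposite directions (log2 0.31 in EB9 and -0.27 in ES, limma adjusted p = 0.00889 and 0.0115). The sizes were close for Fkbp6 (log2 -0.84 in EB9 and -0.80 in ES), Tuba3a (-0.61 and -0.62), Ddx4 (0.58 and 0.48) and Mael (0.38 and 0.44). The difference between the knockdown effects was tested directly, as the EB9 effect minus the ES effect, and 11 of 36 members passed (30.6 percent, against 29.6 percent of all genes, with 12.7 percent higher and 16.9 percent lower in EB9). With the slide as a block 14 passed (against 41 percent of all genes), as Prdm1 and Tuba3b joined those with a higher and Nanos3 those with a lower effect in EB9.

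The effect in EB9 was higher than in ES for Stra8 (difference 1.71 ± 0.21 on the log2 scale, SE), Gtsf1 (1.07 ± 0.18), Asz1 (1.01 ± 0.24), Sycp2 (0.99 ± 0.33), Dazl (0.70 ± 0.16) and Tex19.1 (0.69 ± 0.17). Stra8 and Dazl rose in EB9 and did not pass in ES, while Gtsf1, Asz1 and Tex19.1 fell in ES and did not pass in EB9. It was lower in EB9 for Sycp3 (-1.06 ± 0.25), Dmc1 (-1.05 ± 0.18), Rec8 (-0.92 ± 0.14), Tdrd5 (-0.58 ± 0.17) and Syce2 (-0.50 ± 0.07), all of which had risen in ES. The limma adjusted p of these differences was between 7.51e-05 for Stra8 and 0.0391 for Sycp2, whose probe was not well above background on any EB9 array. Without EB9 control replicate 2, Sycp2 missed the threshold (adjusted p = 0.0641), while Mei1 (-0.38) and Slc25a31 (0.90) passed (limma adjusted p = 0.045 and 0.00361).

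The knockdown effect on related genes was counted in lists that hold no member. Of 33 other meiosis genes, 4 rose and 1 fell in EB9, and 14 rose and 2 fell in ES. Cpeb1, which controls translation in oocytes, passed 2-fold in ES (log2 1.27 ± 0.16, limma adjusted p = 3.88e-05), and the germ cell protein Tex14, of intercellular bridges, rose in EB9 (0.76) and in ES (0.66). Among 15 other piRNA pathway genes, none rose and 1 fell in EB9, and 6 rose and 3 fell in ES. Of 11 other germ cell specification genes, 4 rose and 3 fell in EB9, and 4 rose and 1 fell in ES. Dppa3, a maternal factor that protects DNA methylation in the zygote, rose by 1.06 ± 0.15 in EB9 and by 1.45 ± 0.16 in ES (limma adjusted p = 0.000756 and 1.75e-05). Of 18 oocyte and spermatogonia regulators, 2 rose and 2 fell in EB9, and 3 rose and 2 fell in ES. In EB9 the spermatogonial receptor Gfra1 rose (log2 1.18 ± 0.36) and the egg coat gene Zp1 fell (-1.05 ± 0.24), while in ES the oocyte growth factor Gdf9 fell (-1.23 ± 0.11).

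Of 29 repressors of germ line genes, 3 rose and 1 fell in EB9, and 8 rose and 1 fell in ES. Over all genes, 7.95 percent rose and 7.19 percent fell in EB9, and 21.9 and 16.5 percent did in ES. No gene of the list passed 2-fold. Mga, whose complex binds E-boxes, rose by 0.33 in EB9 and 0.44 in ES, and the DNA methyltransferase Dnmt3b fell by 0.86 in EB9. Of 17 genes that respond to retinoic acid, 3 rose and 6 fell in EB9, and 4 rose and 4 fell in ES. In EB9 the falls past 2-fold were in Crabp1 (log2 -1.68 ± 0.40), Stra6 (-1.45 ± 0.22), Hoxb1 (-1.44 ± 0.40) and Crabp2 (-1.09 ± 0.29). The relation of this list to the change of Stra8 was not tested. In ES they were in Meis2 (-1.70 ± 0.10) and Stra6 (-1.07 ± 0.24). The limma adjusted p of these was at most 0.0312. Markers of supporting cells of the gonad gave 1 rise of 7 in EB9 and 2 in ES, with Wt1 in both (1.06 ± 0.25 and 1.02 ± 0.27).

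The genes with a pattern most like that of Stra8, by Pearson correlation over the 15 arrays, were Spp1, a transcript named ENSMUST00000143074, Ddx43, Nefh and Ccdc13. No coefficient is given because the arrays fall into separate stages. Spp1 averaged -1.24 in EB9 knockdown, -2.33 in EB9 control, 2.70 in ES knockdown and 2.76 in ES control. The germ line helicase Ddx43 averaged -2.02 in EB9 knockdown, -2.72 in EB9 control, 1.50 in ES knockdown and 1.34 in ES control.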

How the data were processed

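Total RNA (500 ng a sample, per the labels) was labelled with Cy3 and hybridised to Agilent arrays. The scanner files hold linear intensity as Feature Extraction 10.7.3.1 deposited it, background-subtracted per the file headers, and the deposited value table of the authors holds log2 values that equal a normexp (offset 50) and quantile normalization of the scanner signals to within 0.000154. Here log2 of the processed signal minus the 75th percentile of each array was used. A gene was represented by its brightest probe that was well above background on 3 or more arrays of a group. All 15 arrays entered 1 fit in limma 3.58.1 (R 4.3.3), with Benjamini-Hochberg adjustment over 21233 genes and a threshold of 0.05. SEs are from that fit. No fold is given where a gene was not well above background on any array of a group, because the lowest signal that counts as above background lay near or below the dim signals themselves and would not bound it. The pipeline was tested on simulated data. Slides were read from the file headers. The deviations of arrays on the same slide correlated in all 21 pairs (0.21 to 0.63), so slides pair the arrays. The fit behind the SEs and adjusted p-values does not use this pairing, and calls that changed with the slide as a block are given beside it. Replicate numbers of the labels followed the slides in every group but ES control. Pairs with the same number ran from -0.59 to 0.55, with a median of 0.34. The median was 0.43 on the same slide and -0.31 for pairs that shared neither. Precision is set by how few arrays there are, and a p-value reflects only the spread between them. The members and the lists of related genes were chosen with earlier results of these data known. The rule for naming genes was that all members are accounted for, that members past the threshold are named in order of size, at most 14 a comparison, and that list genes past the threshold and 2-fold are given with values. The text departs from it after values were seen: members are ordered by role, more than 14 are named in the comparisons of EB9 with ES and of ES knockdown with control, and Tex14, Mga and Dnmt3b were added. Background correction, normalization, filters, probe choice, blocks, array weights, the samples in the fit and each array left out were varied. Promoters came from RefSeq (GRCm38.p6), while probe coordinates are those of the files (mm9).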

Additional observations from a re-analysis of the deposited data

Results flagged for a closer look

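The knockdown effect differed between EB9 and ES, by the test of the difference itself, in 11 members. The log2 difference (EB9 effect minus ES effect) was 1.71 for Stra8, 1.07 for Gtsf1, 1.01 for Asz1, 0.99 for Sycp2, 0.70 for Dazl and 0.69 for Tex19.1, and it was -1.06 for Sycp3, -1.05 for Dmc1, -0.92 for Rec8, -0.58 for Tdrd5 and -0.50 for Syce2. Sycp2 rests on a probe that no EB9 array measured above background.

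A test for a single array far from the other 3 of its group was run on the 36 tested members in the 3 groups of 4 arrays, 108 times in all, and chance alone gives about 1 in 20. It picked out 1 array, ES knockdown replicate 1 for Sycp1, whose gap to the nearest array was 0.848 of the range of the group. It lay below the other 3, which were at -0.90 to -0.88.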

How the results depend on the processing

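Every member that passed kept its direction under each alternative run. In ES knockdown against ES control 15 members passed, and the count moved past 1.5 times under array weights (23, of which 15 rose and 8 fell, where 66.1 percent of all genes passed) and in a fit on the ES arrays alone (24). In EB9 knockdown against EB9 control 12 passed, and only 4 in a fit on the EB9 arrays alone, where 5.28 percent of all genes did. For the difference between the knockdown effects 11 passed, and 18 with array weights, where 47.6 percent of all genes did. The cause of these moves was not tested. Leaving out 1 array at a time gave 14 to 18 members in ES, 7 to 14 in EB9, 32 to 33 for EB9 against ES in knockdown cells, 32 to 34 in control cells and 10 to 13 for the difference. The 7 came without EB9 knockdown replicate 4. The slide as a replicate block gave 20 members in ES, 15 in EB9, 33 and 33 for the stages and 14 for the difference, and each member called without it stayed called. The replicate number of the labels as a block gave 17, 14, 32, 33 and 12. The calls that held under all alternatives were 14 of 15 in ES (all but Tdrd5), 4 of 12 in EB9 (Stra8, Smc1b, Fkbp6 and Tuba3a), all 32 in knockdown cells between stages, 31 of 33 in control cells (all but Prdm1 and Tdrd5) and 9 of 11 for the difference (all but Sycp2 and Tdrd5). With the normexp background the median stage difference was -2.27 in knockdown and -2.38 in control cells, smaller than with the main setting. Probes near background, as those of Sycp2, Piwil4, Tdrd1 and Hormad1 in EB9, give no size of a fall.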
